A study of Mus musculus with 8 samples.

Results

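The genes described are 9 that encode the small GTPases Rap1 and Ral, their closest regulators and the tyrosine kinase Src in Neuro2A (N2A) cells, a mouse neuroblastoma cell line. They were chosen by name, as small GTPases and regulators that link the Go protein of the cannabinoid 1 receptor (CB1R) to Src and Stat3 in neurite outgrowth (NOG). The 9 genes are Rapgef1, Rapgef2, Rap1a, Rap1b, Rap1gap, Ralgds, Rala, Ralb and Src, which the table lists in capitals as RAPGEF1, RAPGEF2, RAP1A, RAP1B, RAP1GAP, RALGDS, RALA, RALB and SRC. All were found among its 16974 genes, and all 9 entered the tests, which used the 11311 genes listed in all 8 libraries with a mean FPKM of at least 1. FPKM scale the fragments of a gene by transcript length and by library, here with upper-quartile scaling. Genes and libraries are set side by side on this scale, which left differences in base composition between libraries, given below.

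N2A cells were grown with 10% fetal bovine serum and starved for 16 h without serum in medium holding 0.1% bovine serum albumin. They then received 2 µM HU210, a CB1R agonist dissolved in DMSO, or drug-free DMSO. mRNA was prepared at 2, 4, 6 and 8 hours, so both treatments share the starvation, the solvent and the hours. Each of the 8 conditions is 1 library made from the pooled mRNA of independent experiments. A comparison within 1 time point thus sets 1 library against 1 and carries no p-value here. The values used are FPKM without fragment counts, and the total reads of a library, which the study's methods state, do not give the fragments behind a gene, so no counting error is given.

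CB1R signals through Gi and Go proteins. In neuronal cells, the alpha subunit of Go can bind Rap1GAP, a protein that switches Rap1 off, and loss of Rap1GAP leaves more Rap1 in its active, GTP-bound state. Active Rap1 passes the signal to Ral through RalGDS, and Ral acts ahead of Src and the transcription factor Stat3. This chain works mostly by binding, GTP exchange and phosphorylation of proteins that are already present. The mRNA levels given here are the amounts of message for these proteins, not their activity.

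The libraries held the mRNA of sympathetic neuroblastoma cells. Of 12 neuroblastoma and neuron markers, 10 were listed and 9 had an FPKM of at least 1 in every library, among them Phox2a at 29.1 to 50.9 and Stmn2 at 129 to 157. Their summed FPKM was 409 to 496 in the HU210 libraries and 410 to 466 in the DMSO libraries. The summed markers of fibroblasts were at 2.18 to 2.45 (3 of 6 listed), those of glia at 5.68 to 6.94 (3 of 5 listed) and those of immune cells at 0.228 to 0.468 (2 of 4 listed), with Itgam, Gfap and Col1a1 at no more than 0.530 in any library. Both 4 h libraries stood apart in base composition. Across genes, Spearman's rho between transcript GC content and a library's deviation from the gene's mean log2 level was 0.475 with HU210 at 4 h and -0.479 with DMSO at 4 h, against -0.165 to 0.291 in the other 6 libraries. Genes are not independent replicates, and rho is given as a description.

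The messages of the 9 genes spanned a wide range of levels. Rap1b was the most abundant, with a mean FPKM of 130 ± 29.9 (SD over the 8 libraries, which differ in treatment and hour), at the 95.5th percentile of the genes tested. Ralgds (26.8 ± 1.72), Rapgef1 (25.4 ± 1.66), Rala (22.0 ± 3.36) and Ralb (17.6 ± 3.60) followed, and each overlapped the next over the libraries. Rapgef2 (13.5, SD 9.59% of the mean), Rap1a (8.14 ± 1.76) and Src (5.44 ± 0.377) came below them. Rap1gap was the least abundant, at 2.31 ± 0.311 and the 9.6th percentile. Neighbours in this order whose 8 values did not overlap were Rap1b and Ralgds, Rapgef2 and Rap1a, and Src and Rap1gap, whereas Rapgef1 was above Rala in 6 of 8 libraries and Rala above Ralb in 5 of 8. Over the 8 libraries, the SD was 23.0% of the mean for Rap1b, 21.6% for Rap1a, 20.5% for Ralb and 15.3% for Rala, but 6.42% for Ralgds, 6.56% for Rapgef1 and 6.93% for Src.

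**Figure D1:**
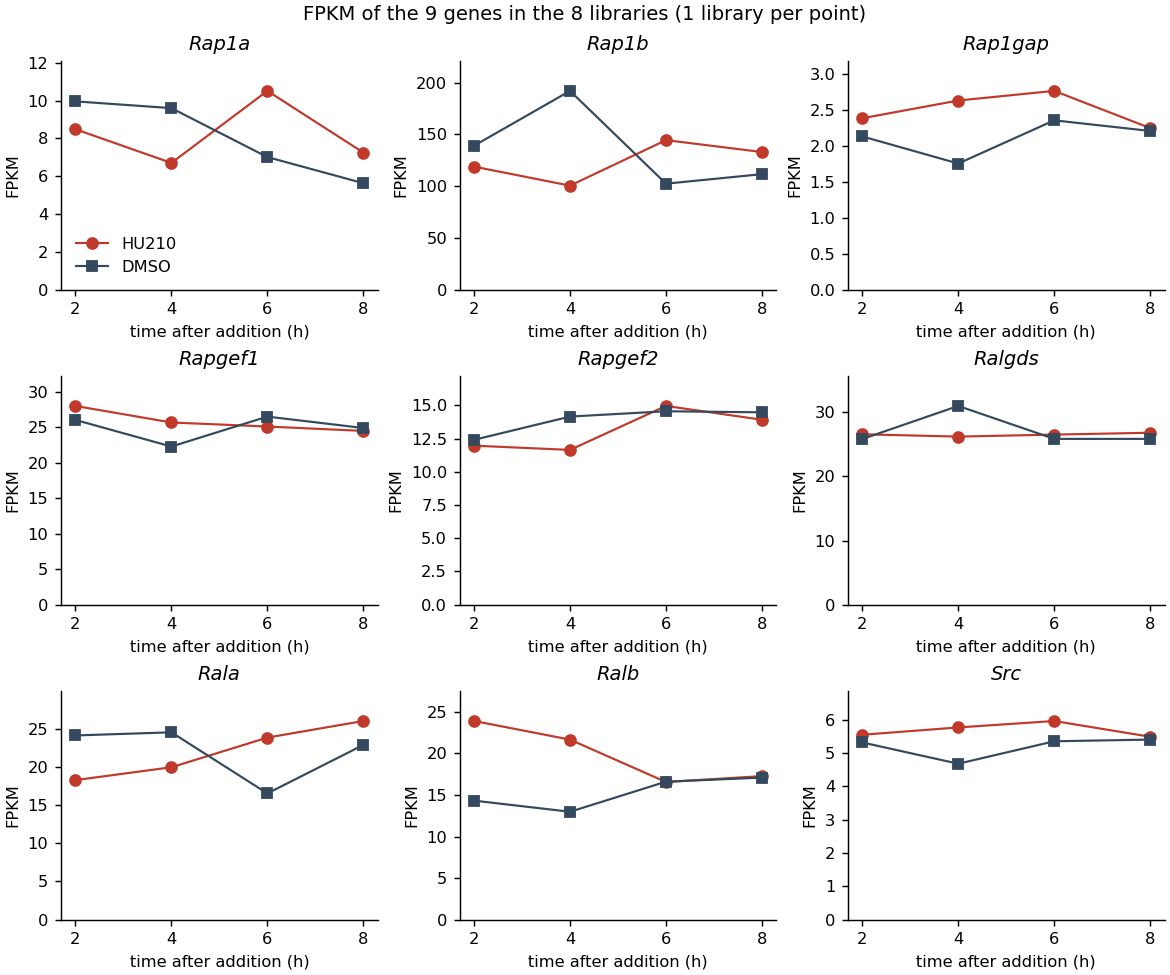
FPKM of each gene (y axis, from 0) against hours after addition (x axis), with 1 library per point, HU210 as red circles and DMSO as blue squares. Ralb with HU210 starts at 23.9 and 21.7, above its DMSO libraries, and meets them at 6 and 8 h, while the curves of Rap1a, Rap1b and Rala cross between 4 and 6 h.

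With HU210, the Ralb message was 1.62-fold higher (on FPKM + 1) at both 2 and 4 h and level with DMSO at 6 and 8 h, while Rap1a, Rap1b and Rala were lower at 2 and 4 h and higher at 6 and 8 h. Rap1gap was 1.32-fold higher at 4 h. Rapgef1, Rapgef2, Ralgds and Src differed by less than 1.3-fold at every time point. None of these differences passed a test over the time points. In bulk RNA, more cells holding a message and more message per cell cannot be told apart. Whether the drug moved these messages was asked with 3 measures. The first is the log2 change at each time point, log2[(FPKM with HU210 + 1)/(FPKM with DMSO + 1)], in which the added 1 shrinks the differences of scarce messages. A gene was past the fold when this value was at least log2(1.5), or log2(1.3) for the less stringent cutoff. The second is the count of genes whose 4 HU210 and 4 DMSO libraries do not overlap. The third is limma on log2(FPKM + 1). For the drug effect it uses the spread of the HU210 minus DMSO difference over the 4 time points and so asks for a difference the time points share. For the change with time it uses the scatter of the libraries, not paired by hour, around a slope. Under limma no gene of the 11311 passed an adjusted p (Benjamini-Hochberg) of 0.05 for the drug effect over the time points, for the change with time or for a drug effect changing with time, which is 0.0% each. At an unadjusted p under 0.05 the counts were 148, 1318 and 232 genes. The adjusted p of the 9 genes for the drug effect was 1.0 in each case.

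At 2 h, 1 of the 9 genes was past 1.5-fold, Ralb, which was higher with HU210. Of all genes tested, 0.504% were past 1.5-fold and 1.49% past 1.3-fold in that direction, and 1.45% were past 1.5-fold and lower. Rala was past 1.3-fold and lower, as were 3.91% of all genes. At 4 h, Ralb was again past 1.5-fold and higher (2.77% of all genes), Rap1gap was past 1.3-fold and higher (8.96%), Rap1b was past 1.5-fold and lower (8.7%) and Rap1a past 1.3-fold and lower (19.9%). At 6 h, Rap1a, Rap1b and Rala were past 1.3-fold and higher (6.38%, with 1.72% lower), and none of the 9 was past 1.5-fold (1.73% higher and 0.637% lower). At 8 h none of the 9 was past 1.3-fold, against 4.38% of all genes higher and 1.44% lower, nor past 1.5-fold (1.17% and 0.557%). In order of time, the median log2 change of the 9 genes was 0.04, -0.23, 0.13 and 0.02, beside -0.05, -0.08, 0.06 and 0.04 for all genes tested.

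**Figure D2:**
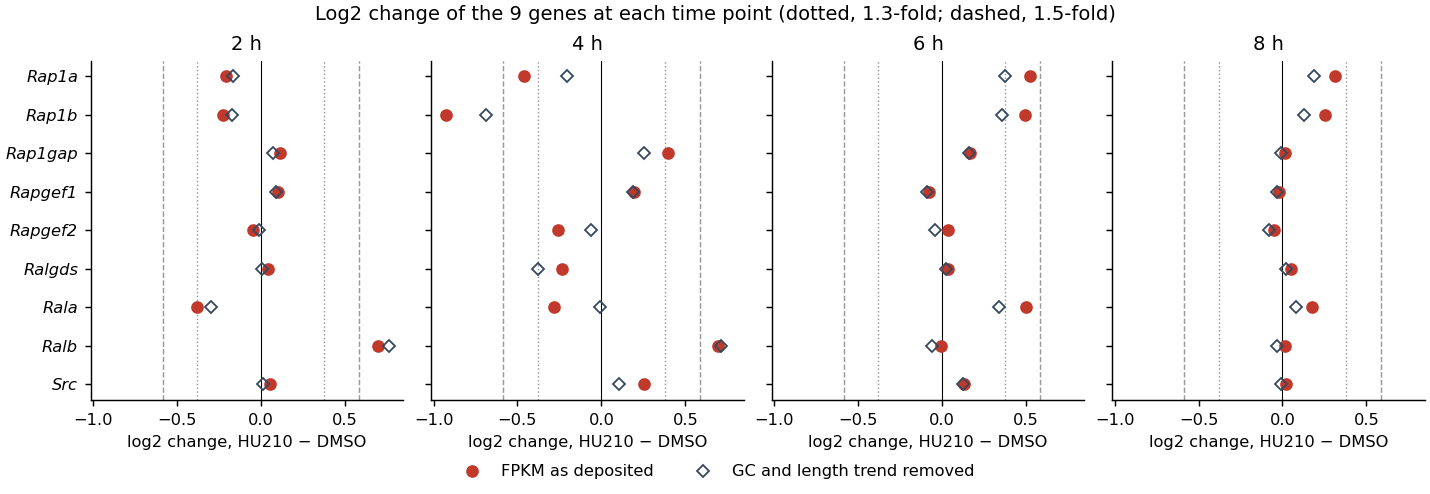
Log2 change, HU210 minus DMSO (x axis), of the 9 genes (y axis) at 2, 4, 6 and 8 h, from the FPKM as deposited (red) and after the trend on transcript GC content and length was removed (open diamonds). Dotted lines mark 1.3-fold and dashed lines 1.5-fold. Ralb lies past 1.5-fold at 2 and 4 h by both, and Rap1b at 4 h by both. Without the trend the 6 h values of Rap1a, Rap1b and Rala come inside 1.3-fold, that of Rap1a (0.3784) only just.

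Rap1 is switched on by exchange factors. Rapgef1 (chr2:29475240-29596498, mm9, plus strand) encodes an exchange factor that Crk adaptors bring to the membrane, where it loads Rap1 with GTP. Its FPKM was 28.0, 25.7, 25.1 and 24.5 with HU210 at 2, 4, 6 and 8 h, and 26.03, 22.3, 26.5 and 24.9 with DMSO. The groups overlapped, and the highest and lowest of the 8 values were the HU210 library at 2 h and the DMSO library at 4 h. The largest log2 change was 0.20, at 4 h, and the estimate over the time points was 0.05 (limma, SE 0.0789, 95% interval -0.14 to 0.24, unadjusted p = 0.551), and 0.001 without the 4 h pair. A pseudogene, Gm9823, lies on the opposite strand over 282 bases of a Rapgef1 exon, so their reads may be shared. The study's materials list a stranded mRNA kit and the labels other library reagents, and the sources used here do not say whether the mapping or counting used the strand.

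Rapgef2 (chr3:78866438-78985262, mm9, minus strand) encodes an exchange factor that holds Rap1 active during the longer response to growth factors in neuronal cells. With HU210 its FPKM was 11.97, 11.7, 15.0 and 13.9, and with DMSO 12.4, 14.2, 14.6 and 14.5. The 2 lowest values were the HU210 libraries at 4 and 2 h, and the groups overlapped. Over both treatments the slope of its log2 level was 0.04 per hour (limma, SE 0.0174, unadjusted p = 0.0488), which did not pass adjustment (adjusted p = 0.425). It was 0.022 without the GC and length trend (unadjusted p = 0.134) and 0.064 without the 8 h pair (unadjusted p = 0.0843). The slope was 0.03 in the DMSO libraries alone and 0.05 in the HU210 libraries alone.

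Rap1a and Rap1b encode near-identical GTPases that switch integrins, cadherins and, in neurons, axon formation. Rap1a lies at chr3:105530185-105604248 and Rap1b at chr10:117251527-117282991 (mm9, both minus strand). Their coding sequences are each 555 bases long and share 81.6% of bases, with no run of identical bases longer than 20, which bears on how reads of one can be kept from the other. The codons of the effector loop, the stretch that touches RalGDS and other targets when GTP is bound, are shown because this is where Rap1 meets the next step of the chain. Codons 32 to 40 of each gene are given 5′ to 3′, with capitals where the bases differ between the paralogs (exon 3 of the longest coding transcript, chr3:105548828-105548854 for Rap1a and chr10:117259863-117259889 for Rap1b, mm9, minus strand).
Rap1a: tatgaCccAacgatagaagattcCtaC
Rap1b: tatgaTccTacgatagaagattcTtaT
The 4 differing bases of these 27 are each the last base of a codon.

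The FPKM of Rap1b was 119, 101, 145 and 133 with HU210 at 2, 4, 6 and 8 h, and 139, 192, 102 and 112 with DMSO. The DMSO library at 4 h was the highest of the 8 and the HU210 library at 4 h the lowest, so that the groups overlapped. The DMSO libraries alone spanned 1.88-fold from hour to hour, and the HU210 libraries 1.44-fold. In order of time, the log2 change of Rap1b was -0.22, -0.93, 0.49 and 0.25. The change of -0.93 at 4 h lay at the 2.1st percentile of all genes tested and that at 6 h at the 97.1st. Over the time points the estimate was -0.10 (limma, SE 0.231, 95% interval -0.66 to 0.46, unadjusted p = 0.673), and without the 4 h pair it was 0.17. When the DMSO level averaged over all 4 hours was the reference, the change of Rap1b at 4 h was -0.39 and that at 6 h 0.13.

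Rap1a was the scarcer of the pair, with a ratio of Rap1b to Rap1a of 13.8 to 20.0 between libraries. Its FPKM was 8.48, 6.70, 10.5 and 7.25 with HU210 and 9.96, 9.60, 7.01 and 5.63 with DMSO. The DMSO values were ordered by hour from high to low, and the HU210 values were not. HU210 minus DMSO was -0.21, -0.46, 0.52 and 0.32 on the log2 scale. Over the time points the estimate was 0.04 (limma, SE 0.173, 95% interval -0.38 to 0.46, unadjusted p = 0.816), and it was -0.12 without the 6 h pair. The slope over both treatments was -0.07 per hour (SE 0.0362, unadjusted p = 0.108, adjusted p = 0.532), and -0.022 without the 8 h pair. It was -0.129 in the DMSO libraries alone and -0.001 in the HU210 libraries alone.

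Both Rap1 messages thus lay lower with HU210 at 2 and 4 h and higher at 6 and 8 h, and so did Rala. Of all genes tested, 25.1% showed these 4 signs. With the averaged DMSO level as reference, the signs of Rap1a at 2 h (0.10) and 8 h (-0.10) turned. The change of the log2 difference per hour was 0.14 for Rap1b, 0.13 for Rap1a and 0.12 for Rala (limma, SE 0.0910, 0.0635 and 0.0564, unadjusted p = 0.172, 0.0935 and 0.0739, adjusted p = 0.990 each). It was 0.295 for Rap1b without the 2 h pair (unadjusted p = 0.0285) and 0.094 without the 4 h pair, 0.194 for Rap1a without the 2 h pair and 0.221 for Rala without the 8 h pair. Without the GC and length trend it was 0.097, 0.082 and 0.075. Rap1b made up 93.2 to 95.2% of the summed Rap1 FPKM in the 8 libraries. Its share differed between HU210 and DMSO by 0.020 percentage points at 2 h and by -1.49, -0.37 and -0.37 points at 4, 6 and 8 h.

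The transcripts of these 3 genes are poor in GC. The longest coding transcript had 38.7% GC for Rap1a, 39.9% for Rap1b and 43.8% for Rala, which are at the 2.2nd, 4.2nd and 16.4th percentile of the genes tested. Rapgef2 (48.8%) and Ralb (51.9%) were near the median of 50.5%, and Rapgef1 (56.2%), Ralgds (58.6%), Rap1gap and Src (59.3% each) were above it. Over the 10590 genes with a transcript in the annotation, Spearman's rho of the log2 change with GC content was 0.167, 0.532, -0.298 and -0.151 in order of time. Without the trend on GC content and length, the change at 4 h was -0.68 for Rap1b, -0.20 for Rap1a and -0.01 for Rala, and that at 6 h was 0.36, 0.38 and 0.34. The part of base composition in these differences was not otherwise tested.

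**Figure D3:**
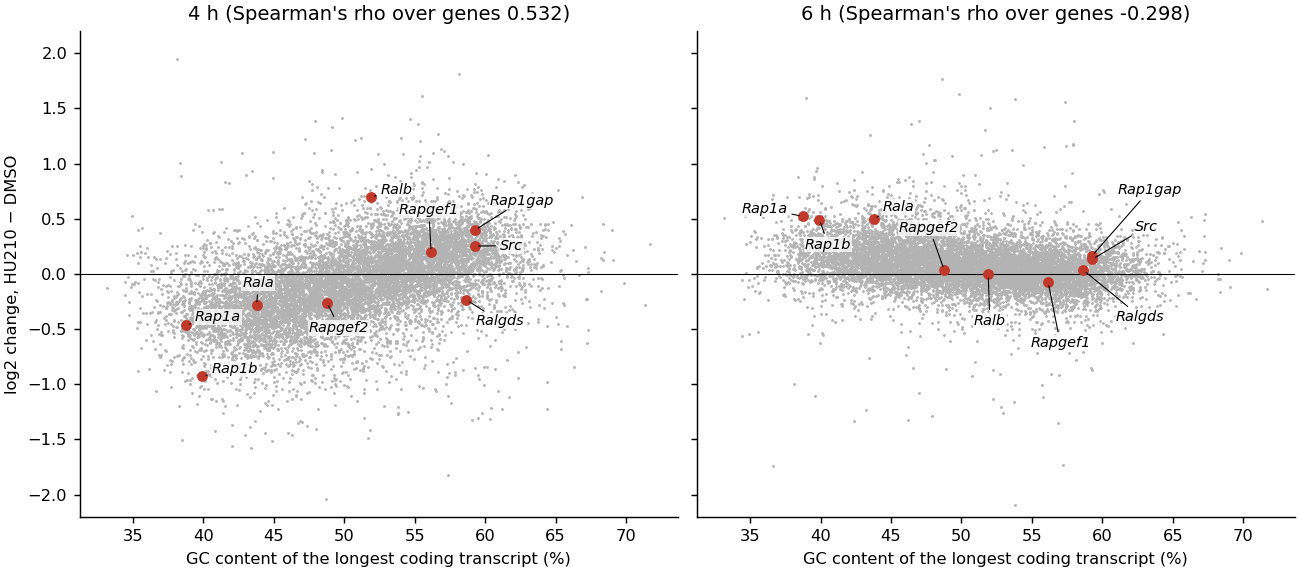
Log2 change, HU210 minus DMSO (y axis), against the GC content of the longest coding transcript (x axis, percent) for 10590 genes (grey) at 4 h and 6 h, with the 9 genes in red. At 4 h the cloud climbs with GC content, and the changes of Rap1b and Ralb are at the 2.1st and 98.4th percentile of all genes tested. At 6 h the cloud slopes the other way, with Rap1a, Rap1b and Rala at its GC-poor upper side. The axis leaves out 1 gene at 4 h.

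Rap1gap (chr4:137220641-137285782, mm9, plus strand) encodes the GTPase-activating protein that returns Rap1 to its inactive form and binds the alpha subunit of Go. It had an FPKM of 2.39, 2.63, 2.77 and 2.25 with HU210 and 2.13, 1.76, 2.36 and 2.21 with DMSO. Within each hour the HU210 library was the higher, and 3 of the 4 HU210 libraries were above all 4 DMSO libraries. Its log2 changes were 0.11, 0.40, 0.17 and 0.02. Such a sign at all 4 time points was seen in 4.5% of all genes tested. The estimate over the time points was 0.17 (limma, SE 0.0893, 95% interval -0.04 to 0.39, unadjusted p = 0.0989), and 0.099 without the 4 h pair. Without the GC and length trend, the 4 h change of Rap1gap was 0.25 and the 8 h change -0.01 (-0.03 with the pair centred on its median). An antisense gene, 1810058N05Rik, lies within the locus but shares no exon bases with Rap1gap.

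Ralgds (chr2:28368645-28408601, mm9, plus strand) encodes the exchange factor that binds GTP-loaded Rap1 or Ras and switches Ral on. In the HU210 libraries its FPKM was 26.6, 26.2, 26.5 and 26.8, and in the DMSO libraries 25.8, 31.0, 25.9 and 25.9. The HU210 libraries spanned 1.02-fold, and 3 of the 4 DMSO libraries lay together just below them, with the DMSO library at 4 h above all others. Its log2 changes were 0.04, -0.23, 0.04 and 0.05. Without the GC and length trend the 4 h change was larger, at -0.3758, just inside 1.3-fold. Without the 4 h pair the estimate was 0.04 (limma, unadjusted p = 0.523), against -0.03 with all pairs (SE 0.0819, 95% interval -0.23 to 0.17, unadjusted p = 0.753). The estimate was -0.08 without the GC and length trend (limma, unadjusted p = 0.392).

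Rala and Ralb encode the Ral GTPases, which steer the exocyst complex and so the delivery of membrane to the plasma membrane, including that of a growing neurite. Rala lies at chr13:17972409-18036073 and Ralb at chr1:121366882-121401371 (mm9, both minus strand). Their coding sequences, 621 bases each, share 73.4% of bases with no common run longer than 17. Codons 43 to 51 are the effector loop of Ral, the counterpart of the stretch shown for Rap1, and are given the same way because Ral meets its targets there (exon 3, chr13:17985126-17985152 for Rala and chr1:121374662-121374688 for Ralb, mm9, minus strand).
Rala: tatgaAccTaccaaagcGgacagCtac
Ralb: tatgaGccCaccaaagcTgacagTtac
The 4 differing bases are again each the last base of a codon, whereas Rap1b and Rala differ at 10 of these 27 bases.

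Ralb had the largest positive changes among the 9 genes. Its FPKM was 23.9, 21.7, 16.6 and 17.3 with HU210 at 2, 4, 6 and 8 h, and 14.3, 13.0, 16.6 and 17.1 with DMSO. The HU210 libraries at 2 and 4 h were above every other library, and at 6 and 8 h the treatments were alike in level. The log2 change was 0.70 at 2 h and 0.70 at 4 h, at the 99.7th and 98.4th percentile of all genes tested, and 0.00 and 0.01 at 6 and 8 h. In all, 9 genes (0.0796%) were past 1.5-fold and higher at both 2 and 4 h. This pattern was taken from the values of Ralb itself, so its share is a description only. Without the GC and length trend these changes were 0.76 and 0.71, and with the averaged DMSO level as reference they were 0.62 and 0.49.

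Over the 4 time points, the estimate for Ralb was 0.35 (limma, SE 0.155, 95% interval -0.03 to 0.73, unadjusted p = 0.0632, adjusted p = 1.0). The slope of the log2 difference was -0.14 per hour (SE 0.0474, unadjusted p = 0.0288), which was not past the threshold after adjustment (adjusted p = 0.990). With 1 library per condition, neither early difference was measured again at its own hour.

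The FPKM of Rala was 18.3, 19.9, 23.8 and 26.0 with HU210 and 24.1, 24.5, 16.5 and 22.9 with DMSO. With HU210 the values were ordered by hour from low to high, and with DMSO the 6 h library was the lowest of all 8. The log2 change was -0.38, -0.28, 0.50 and 0.18, and the estimate over the time points was 0.00 (limma, SE 0.159, 95% interval -0.38 to 0.39, unadjusted p = 0.984). With the averaged DMSO level as reference, the change of Rala at 6 h was 0.13.

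The balance of the Ral messages differed in the early libraries, a comparison chosen after the values were seen and so given without a test. Rala made up 43.3% of the summed Ral FPKM with HU210 and 62.7% with DMSO at 2 h, and 47.9% and 65.4% at 4 h. At 6 h its share was 59.0% with HU210 and 49.9% with DMSO, and at 8 h 60.1% and 57.2%. The log2 ratio of Rala to Ralb differed between HU210 and DMSO by -1.14, -1.04, 0.53 and 0.17 in order of time, and by -1.06, -0.72, 0.40 and 0.11 without the GC and length trend. The summed FPKM of both stayed within 40.4 to 43.3 with HU210 and 33.1 to 40.0 with DMSO, and was higher with HU210 at each hour, by 0.11 to 0.29 on the log2 scale.

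**Figure D4:**
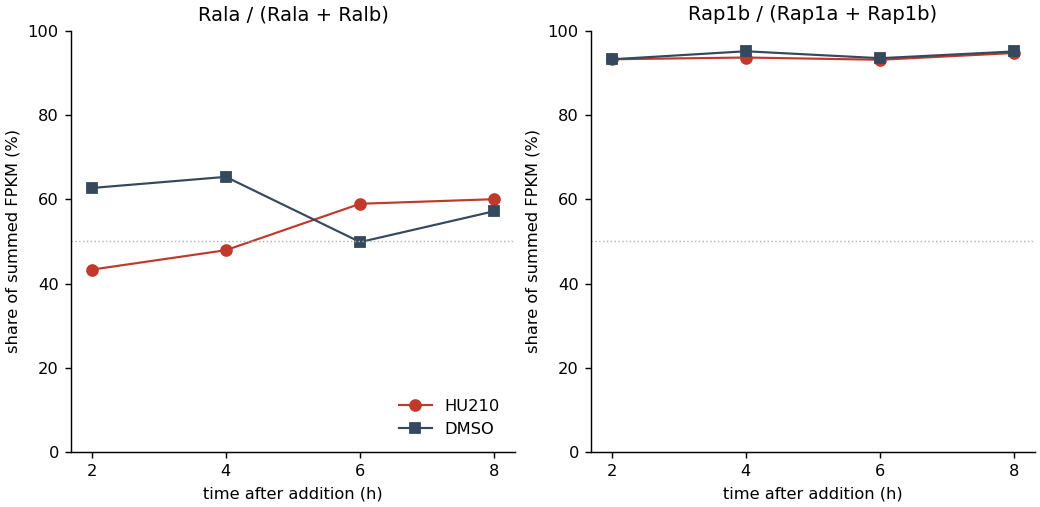
Share of the summed FPKM of a pair (y axis, percent) against hours after addition (x axis), for Rala among Rala and Ralb (left) and Rap1b among Rap1a and Rap1b (right), with 1 library per point. The share of Rala is below 50% only in the HU210 libraries at 2 and 4 h and in the DMSO library at 6 h (49.9%), while that of Rap1b stays between 93.2% and 95.2%.

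Src (chr2:157244180-157297598, mm9, plus strand) encodes a membrane-bound tyrosine kinase that phosphorylates Stat3 and cytoskeletal proteins. Its FPKM was 5.55, 5.77, 5.96 and 5.49 with HU210 and 5.32, 4.68, 5.35 and 5.40 with DMSO. All 4 HU210 libraries were above all 4 DMSO libraries, by a margin of 5.49 against 5.40 between the closest values. It was the only one of the 9 genes without overlap, and 0.371% of all genes tested showed this order in each direction. On the log2 scale, HU210 minus DMSO was 0.05, 0.25, 0.13 and 0.02, and the estimate over the time points was 0.11 (limma, SE 0.0772, 95% interval -0.07 to 0.30, unadjusted p = 0.190). The estimate was 0.067 without the 4 h pair and 0.058 without the GC and length trend. The separation was lost when each library was centred on its median or when the GC and length trend was removed. Leaving out a pair cannot end such a separation and can only add genes to the count. Of the 9 genes, 1, 2, 3 and 2 had no overlap without the 2, 4, 6 or 8 h pair, beside 4.03%, 4.55%, 7.2% and 3.45% of all genes tested.

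The promoters of the 9 genes, 250 bases before to 50 bases after the start, were searched in RefSeq (GRCm38.p6), where 8 genes had 16 promoters and Rap1a was not matched. The motifs, chosen after values had been seen, were the cyclic AMP response element (TGACGTCA), the STAT site TTCNNNGAA, the AP-1 site TGANTCA and the Egr site GCGTGGGCG, on both strands. The first was held by 1 of the 16 promoters, that of Rap1b, and by 1.79% of all 32851 promoters. The Egr site was held by 1, that of Ralb, and by 0.61% of all. Neither of the other two, which were in 8.3% (STAT) and 7.81% (AP-1) of all promoters, was found in the 16. The windows around both matches are shown because they were the only matches in the 16 promoters, at chr10:117845998-117846027 and chr1:119504978-119505007 (GRCm38.p6, both minus strand, motif in capitals).
Rap1b: ggctgaacgccTGACGTCAaggcgacaccg
Ralb: ggagtgcaccCGCCCACGCcccggcgtccc
The first motif begins at position -42 and the second at position -215, counted from the start. A match of letters is not evidence that a factor binds there.

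For each gene, the other gene whose log2 level was most like it over the 8 libraries was found among the 10894 genes that had at least 1 FPKM throughout. Pearson's r is a description over libraries that share hours and pairs. The match of Rap1b was Rhot1 (r = 0.998), and 5.59% of the genes compared had an r above 0.9 with it. Ralb had the loosest match, Ap5s1 (r = 0.945), with 0.11% above 0.9. The matches of the others were Plekhj1 for Rap1a (0.985), Klc4 for Rap1gap (0.985), Tspo for Rapgef1 (0.985), Arid1a for Rapgef2 (0.988), Mdm1 for Rala (0.976), Ints13 for Ralgds (0.985) and Sdc3 for Src (0.975). Among the 9 genes themselves, Rap1gap and Src were closest (r = 0.970), and Rap1b was at 0.811 with Ralgds, 0.721 with Rap1a and -0.686 with Ralb.

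The wider pathway was read from a list of 68 genes by family, of which 62 were listed and 53 tested. No gene of the 53 was called by limma in any of the 3 fits, and at an unadjusted p under 0.05 there were 0 for the drug effect, 9 (17.0%) for the change with time and 0 for the drug effect changing with time, beside 1.31%, 11.7% and 2.05% of all genes tested. None had HU210 and DMSO libraries without overlap. Past 1.5-fold were 1 gene higher at 2 h, 4 lower at 4 h, 1 higher at 6 h and 1 lower at 8 h. Over all genes the shares were 0.504% higher at 2 h, 8.7% lower at 4 h, 1.73% higher at 6 h and 0.557% lower at 8 h. The median log2 change of the 53 was -0.01, 0.01, 0.06 and 0.05, beside -0.05, -0.08, 0.06 and 0.04 for all genes tested.

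The 4 genes past 1.5-fold and lower at 4 h were 7.55% of the 53, a share no higher than the 8.7% of all genes tested, and are given as values. Crk, the adaptor that carries the Rapgef1 protein, was at 19.2 FPKM with HU210 and 32.0 FPKM with DMSO. Ralgapa1, the catalytic subunit of a complex that switches Ral off, was at 5.72 and 10.9. Yes1, a kinase of the Src family, was at 4.30 and 8.45, and Gnai3, an inhibitory G protein subunit, at 29.9 and 50.8. Their log2 changes were -0.71 (Crk), -0.82 (Ralgapa1), -0.84 (Yes1) and -0.75 (Gnai3). In all 4 the DMSO library at 4 h was the highest of the 8, as for Rap1b. Their transcripts had 40.8 to 44.0% GC, and without the GC and length trend the changes were -0.39 (Crk), -0.48 (Ralgapa1), -0.46 (Yes1) and -0.44 (Gnai3), inside 1.5-fold.

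Rasgrp2, an exchange factor for Rap known from platelets, was past 1.5-fold at 2 h (FPKM 2.43 with HU210 and 1.19 with DMSO) and at 6 h (4.49 and 1.10), but lower with HU210 at 4 h (2.69 and 3.70, a log2 change of -0.35) and at 8 h (1.56 and 2.03, -0.24). Its DMSO libraries alone ran from 1.10 to 3.70. Rap1gap2, a relative of Rap1gap, was at 6.55 with HU210 and 11.1 with DMSO at 8 h, a log2 change of -0.68, but at 10.8 and 8.10 at 4 h.

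At the ends of the chain, Cnr1, which encodes CB1R, had log2 changes of -0.16, -0.53, 0.45 and -0.24 in order of time, and its FPKM ran from 15.5 to 27.9 with HU210 and from 17.3 to 26.96 with DMSO. Gnao1, the alpha subunit of Go, was at 40.7 to 50.7 with HU210 and 43.0 to 51.1 with DMSO, with no log2 change beyond 0.18 in size in either direction. Stat3 had log2 changes of 0.06, 0.17, -0.36 and -0.23, and at 6 h its FPKM was 27.2 with HU210 against 35.1 with DMSO. By limma the estimates over the time points were -0.12 for Cnr1, -0.06 for Gnao1 and -0.09 for Stat3 (unadjusted p = 0.482, 0.467 and 0.449, adjusted p = 1.0 each).

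**Figure D5:**
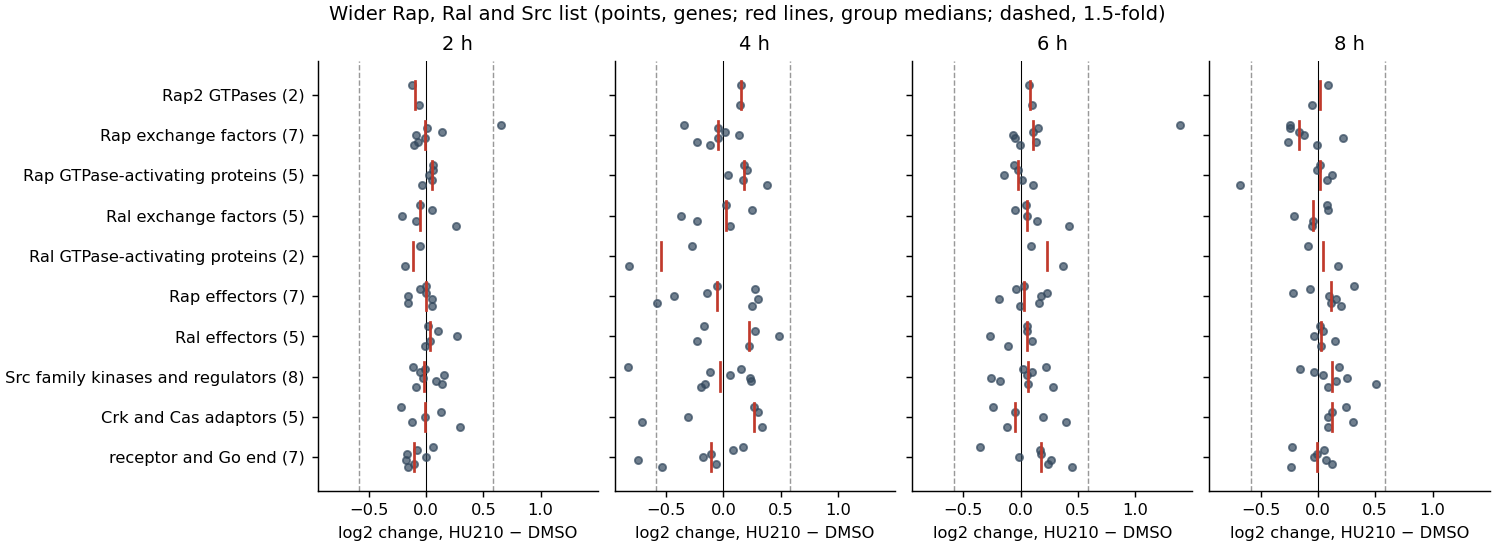
Log2 change, HU210 minus DMSO (x axis), of the 53 tested genes of the wider list by family (y axis, number of genes in brackets) at each time point; points are genes, red lines the medians of a family and dashed lines 1.5-fold. At 4 h, 4 genes lie beyond the lower line, and the 5 Rap GTPase-activating proteins are all above 0, as are 40.9% of all genes tested.

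By family, the Rap GTPase-activating proteins were above 0 in 5 of 5 at 4 h (median 0.18), also without the GC and length trend or with the pair centred on its median, and in 2 of 5 at 6 h (median -0.02). Without the trend, the lowest of the 5 at 4 h was Sipa1, at 0.0081 (0.18 as deposited). The Rap exchange factors other than Rapgef1 and Rapgef2 were above 0 in 2 of 7 at 4 h (4 of 7 without the GC and length trend) and in 4 of 7 at 6 h (3 of 7). The Ral exchange factors other than Ralgds were above 0 in 3 of 5 at 4 h and in 4 of 5 at 6 h (3 of 5 each without the trend). At 4 h the Rap2 GTPases were above 0 in 2 of 2, in each of these settings. The Ral GTPase-activating proteins were above 0 in 0 of 2 at 4 h (1 of 2 without the trend). Of all genes tested, 40.9% were above 0 at 4 h and 65.6% at 6 h, as deposited. No such share was taken without the trend, and centring on the median sets the share by construction, so the counts in those settings have no background beside them.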

How the data were processed

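mRNA of 8 pooled libraries was measured, 1 per condition. Reads were mapped by the authors to mm9 with TopHat2 2.0.8, Bowtie2 2.1.0 and SAMtools 0.1.7. The authors deposited FPKM of Cufflinks and Cuffdiff (upper-quartile scaling, multiread and bias correction) with 1 added, which was subtracted here. The Cufflinks version is not given in the sources used here. The deposited fold changes, p-values and q-values and the table of differentially expressed genes hold the authors' own comparisons and were not used.

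Genes listed in all 8 libraries with a mean FPKM of at least 1 were tested on log2(FPKM + 1) with limma 3.58.1 (R 4.3.3, trended eBayes, 2-sided, Benjamini-Hochberg over all genes). The 3 fits were treatment with time point as a factor, hour as a slope with treatment, and treatment by centred hour. For the drug effect and for the drug effect changing with time, the hour served as the pairing of libraries, so those p-values measure the spread over hours. For the change with time the libraries were not paired, and its p-values measure their scatter around a slope. The 3 fits were tested on simulated data with independent noise, and the removal of the GC and length trend was not. Tables were made in Python 3.11.15 with pandas 2.3.3. Transcripts and positions come from GENCODE on mm9, and 93.6% of the genes tested had a GC content. The GC and length trend was fitted by loess (span 0.3, degree 1).

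Alternatives were a pseudocount of 0.1, no filter, a mean FPKM of at least 5, other centring or reference, eBayes without trend and each time point left out. The genes named are the 9 genes, those of the wider list past 1.5-fold with an FPKM of at least 1 or called, Cnr1, Gnao1, Stat3, and the gene most like each of the 9. The genes and lists were chosen with earlier results of these data known. Some genes of the wider lists are not reported by name here.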

Additional observations from a re-analysis of the deposited data

Results flagged for a closer look

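In 18 groups of 4 libraries (9 genes, HU210 or DMSO), 2 had 1 library whose gap to the nearest, divided by the range of the group, was above Dixon's 95% critical value for 4 samples, which chance passes in about 1 in 20 groups. Ralgds at 4 h with DMSO had an FPKM of 31.0, against 25.8 to 25.9 in the other 3 DMSO libraries (gap over range 0.995). Src at 4 h with DMSO had an FPKM of 4.68, against 5.32 to 5.40 in the other 3 (gap over range 0.882). The 4 libraries of a group differ in hour, so the hour and the library cannot be told apart.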

How the results depend on the processing

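No gene was called by limma for the drug effect or for the change with time under any alternative. For the drug effect changing with time, leaving out a time point gave 6 to 17 called genes (11 without 2 h, 7 without 4 h, 6 without 6 h, 17 without 8 h), none of them among the 9 or the wider list. Without the time block, that is without the hour as a pairing, the drug effect again called 0 genes, and Ralb had an estimate of 0.352 (unadjusted p = 0.024). With the pairing, the estimate for Ralb was 0.236 without the 2 h pair (unadjusted p = 0.2366) and 0.237 without the 4 h pair (unadjusted p = 0.185). It was 0.47 without the 6 h pair (unadjusted p = 0.0333) and 0.465 without the 8 h pair (unadjusted p = 0.0385). The estimate changed sign for Rap1a without the 6 h pair (-0.118) or the 8 h pair (-0.049), Rala without the 6 h pair (-0.163) or the 8 h pair (-0.055), Rap1b without the 4 h pair (0.173) and Ralgds without the 4 h pair (0.042). Over the time points left out, the estimates ran from -0.118 to 0.21 for Rap1a, -0.3 to 0.173 for Rap1b, -0.163 to 0.132 for Rala and -0.053 to 0.042 for Ralgds. The cause was not tested.

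The number of the 9 genes past 1.3-fold was 2, 4 and 3 at 2, 4 and 6 h. With the averaged DMSO level as reference it was 1, 2 and 0, without the GC and length trend 1, 2 and 0, and with each pair centred on its median 1 at 2 h. Rap1a at 6 h lay just inside the cutoff with that reference (0.377) and without the trend (0.3784). Ralgds at 4 h also lay just inside it without the trend (-0.3758). The number past 1.5-fold at 4 h was 2, and 0 with the mean DMSO reference. In the wider list, 1, 4 and 1 genes past 1.5-fold at 2, 4 and 8 h became 0, 0 and 0 with that reference, and the 4 at 4 h became 0 without the GC and length trend. The count of the 9 genes without overlap was 1, became 0 with centring on the median and 0 without the GC and length trend, and was 1 to 3 with a time point left out, where by construction it cannot fall (4.03% without 2 h, 4.55% without 4 h, 7.2% without 6 h and 3.45% without 8 h over all genes tested). Beside Src these were Ralgds without 4 h, Rap1gap and Ralb without 6 h, and Rap1gap without 8 h. These last alternatives, apart from the centring, were chosen after seeing the data, as were those of the ratio of Rala to Ralb, whose log2 difference at 6 h was 0.004 with the averaged DMSO level as reference. The values used are FPKM without fragment counts, so no counting error of a single difference is given.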
